A study of Mus musculus with 8 samples.

Results

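The genes described here encode the machinery that brings proteins into mitochondria, folds and degrades them there, and shapes the folds of the inner membrane. They were chosen by symbol: all Timm, Tomm and Chchd genes with a number, the metaxins Mtx1 to Mtx3, and 16 named genes of the import motor, the chaperonins, the proteases and the cristae. Of 55 symbols that matched, 50 reached the required summed count of 80 over the 8 libraries. The lowest sum among these 50 was 863, and the 5 left out were Tomm6os with 35, Chchd2-ps with 22, and Timm29-ps1, Timm8a2 and Tomm20l with 0. All 50 passed the count filter and were tested among 14070 genes.

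RNA came from the quadriceps of C57BL/6J mice, all labelled wild type, whose age was 8 weeks when the experiment began. In the 4 tumor mice, 500000 B0092 cells, a head and neck squamous cell carcinoma line, had been placed under the skin of the nape in 200 uL, and the 4 control mice received the vehicle PBS. Muscle was taken on day 36, at a weight loss of about 10% in the tumor mice. All 8 records, those of controls included, carry the name of the line and its cancer type, and only the treatment label separates the groups. The model rests on 1 tumor line, and the sex of the mice was not given in the sources used here.

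As background, nearly all mitochondrial proteins are made in the cytosol and enter through the TOM complex of the outer membrane. From there, the SAM complex with the metaxins inserts barrel-shaped proteins into the outer membrane, small TIM chaperones hand carrier proteins to the TIM22 complex, and TIM23 with its motor draws proteins with a presequence into the matrix. The chaperonins Hspd1 and Hspe1 fold proteins in the matrix, AAA+ proteases remove damaged ones, and the MICOS complex holds the cristae, which carry the respiratory chain, to the inner boundary membrane. Skeletal muscle is rich in mitochondria, more so in oxidative than in glycolytic fibres.

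Totals per library ran from 28436254 to 36139478 estimated counts. Muscle genes dominated every library. Of 6 squamous epithelial markers, Krt5, Krt14 and Krt6a were at 0 in all 8, and Krt16 and Epcam had summed counts of 3 and 8. Trp63 was present in every control, at 6.27 to 9.4 CPM, and was 3.01-fold higher in tumor (adjusted p = 0.00484, edgeR quasi-likelihood test). The source of its RNA was not tested. Of the endothelial markers 2 of 4 were lower, of the fibro-adipogenic markers 1 of 4, and no adipocyte, macrophage, erythroid, Schwann or satellite cell marker was called. Summed adipocyte markers ran from 177 to 1315 CPM in controls and from 106 to 1069 CPM in tumor libraries. Summed macrophage markers ran from 20.4 to 34.3 CPM and from 14.8 to 71 CPM. With such spread, a missing call does not show equal cell content. Of 9 muscle genes, desmin (Des) was higher (adjusted p = 0.0212) and the actin Acta1 (0.0368) and Myh7 (0.0284), the myosin of slow oxidative fibres, were lower in edgeR. Myh7 stood at 119, 16.4, 1.48 and 2164 CPM in controls and at 3.03, 4.09, 1.41 and 0.115 CPM in tumor libraries, so its groups overlapped and its mean in controls rests on replicate 4. The calls of these 3 muscle genes were each lost without control replicate 1 or tumor replicate 3. Myh4, the myosin of the fastest glycolytic fibres, made up from 64.6% to 98% of adult myosin heavy chain RNA in the controls and from 80.3% to 98.9% in the tumor libraries. Control replicate 4, with the lowest share, also had the highest mean level of 83 respiratory chain subunits, 7.53 log2 CPM, with 7.28 as the next highest control. The part of fibre type and of other cell types in the results below was not tested, other than by the covariate for the ratio of Myh4 to other adult myosin RNA.

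For 43 of the 50 genes no difference between tumor and control muscle passed the test, and none of the 50 was called higher. The 7 that fell were Tomm40l, Chchd10, Chchd2, Timm22, Apool, Chchd3 and Timm50, which made up 14% of the 50. Over all 14070 genes, 19.8% were called in either direction, 11.0% higher and 8.73% lower, so the share of the 50 called lower was above the share over all genes and the share called in either direction below it. The median log2 fold change of the 50 was -0.06, against 0.00 over all genes, and single genes ran from -1.32 to 0.34, with 22 positive and 28 negative. In 8 of the 50, the 7 called and the protease gene Afg3l1, every tumor library lay below every control library, which held for 11.5% of all genes. In 0 of the 50 every tumor library lay above every control library, against 13.5% of all genes. At an unadjusted p under 0.05 in the same edgeR test, 12 of the 50 passed, while 35.0% of all genes did.

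The 7 calls were of unequal strength, and limits apply to the weaker ones. With each library left out in turn, Tomm40l and Chchd10 were called in 8 of 8 fits, Chchd2 and Timm22 in 6, Apool in 4, and Chchd3 and Timm50 in 2, and the count of genes called lower was 2 without control replicate 1, 2 without tumor replicate 3, 4 without control replicate 2 and 4 without control replicate 4. Calls fell over the whole table in the same fits. Over all genes, 480 were called lower without control replicate 1 and 482 without tumor replicate 3, against 1229 with all 8 libraries. The figures were 613 without control replicate 2 and 979 without control replicate 4. In bulk tissue, fewer fibres or mitochondria of a kind and less RNA per fibre cannot be told apart.

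**Figure D1:**
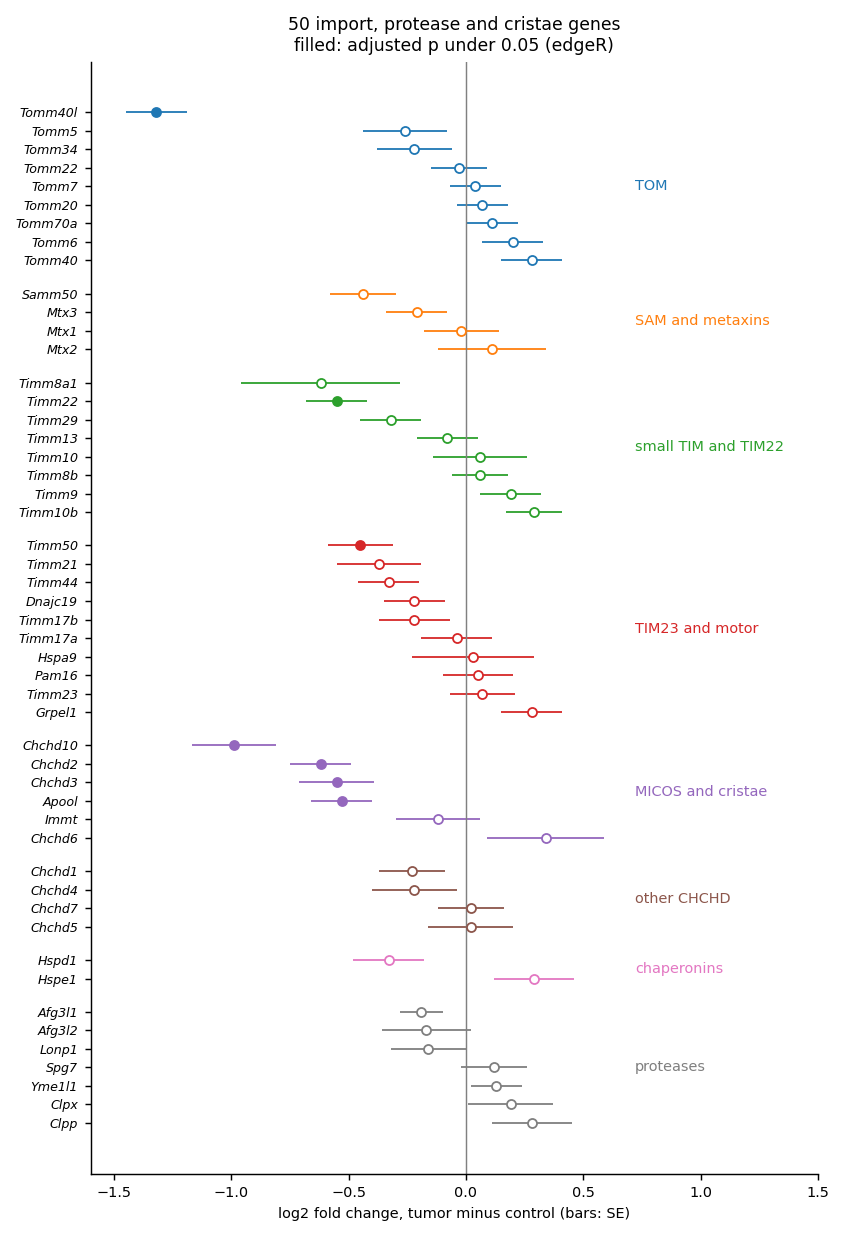
Log2 fold change (tumor minus control) of each of the 50 genes, grouped by role on the vertical axis, with bars for 1 standard error. Filled points passed an adjusted p of 0.05 in edgeR: 1 in TOM, 1 among the small TIM and TIM22 genes, 1 in TIM23 and its motor, and 4 among the MICOS and cristae genes, all to the left of 0.

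At the outer membrane, the TOM genes had a median log2 fold change of 0.04, and 1 of 9 was called. Tomm40l encodes a close relative of the channel protein Tomm40. Its level was 37.7, 28.2, 31.3 and 38.1 CPM in control replicates 1 to 4 and 14.6, 13.5, 12 and 14 CPM in tumor replicates 1 to 4. Every tumor library was thus below every control, and the tumor libraries lay close together. Tomm40l was 2.50-fold lower in tumor (log2 fold change -1.32 ± 0.13 SE, adjusted p = 0.00212, edgeR), the largest change among the 50 genes. Tomm40, the channel itself, stood at 26.6, 23.2, 25.4 and 30.1 CPM in controls and at 28.1, 36.3, 33.6 and 30 CPM in tumor libraries. These groups overlapped, and the difference of 0.28 ± 0.13 on the log2 scale was not called (adjusted p = 0.141, edgeR).

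Because both genes are read in the same library, their ratio does not depend on scaling. The log2 ratio of Tomm40l to Tomm40 was 0.50, 0.28, 0.30 and 0.34 in the controls and -0.94, -1.43, -1.48 and -1.10 in the tumor libraries. The groups were far apart beside the spread within each, and the ratio was 3.02-fold lower in tumor. An exact two-sided permutation test of 4 against 4 gave p = 0.0286, the smallest the design allows. After adjustment over the 7 pairs examined it was 0.0667, which does not pass 0.05. However far apart its groups, no pair could pass on its own after this adjustment, so the miss decides nothing. The same holds for each of the 7 pairs. Per kilobase of exon, Tomm40l was at 6.59 CPM in controls and Tomm40 at 5.83, while in tumor muscle Tomm40l was at 2.63 and Tomm40 at 7.09. By these lengths the order of the 2 genes was turned around. The lengths are unions of annotated exons, 5135 bases for Tomm40l and 4513 for Tomm40, and the order in controls rests on that choice.

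None of the other TOM genes passed the test with all 8 libraries, and Tomm5 passed as lower without tumor replicate 4 (-0.46, adjusted p = 0.0421, edgeR). Log2 fold changes were 0.07 ± 0.11 for the presequence receptor Tomm20, -0.03 ± 0.12 for the central receptor Tomm22 and 0.11 ± 0.11 for Tomm70a, the receptor for carrier proteins. The small subunits Tomm5, Tomm6 and Tomm7 had values of -0.26 ± 0.18, 0.20 ± 0.13 and 0.04 ± 0.11. Tomm34, a cytosolic co-chaperone of import, had -0.22 ± 0.16. Tomm40l therefore stood alone among the TOM genes in both its call and its size.

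For sorting into the outer membrane, 0 of 4 genes was called, with a median of -0.11. Samm50, the barrel of the SAM complex, stood at 159, 145, 129 and 187 CPM in controls and at 105, 105, 115 and 131 CPM in tumor libraries. Only tumor replicate 4 reached into the range of the controls. Its log2 fold change of -0.44 ± 0.14 missed the threshold (adjusted p = 0.0542, edgeR), and it passed without tumor replicate 4 at -0.53 (adjusted p = 0.0382). It passed also with DESeq2 (0.023), with upper-quartile scaling (0.0312) and with a stricter count filter (0.0378). The metaxin Mtx2 overlapped widely between groups, with 13.6, 11.9, 12 and 19.3 CPM in controls and 10.8, 15.7, 13.3 and 21.6 CPM in tumor libraries. Log2 fold changes were 0.11 ± 0.23 for Mtx2, -0.02 ± 0.16 for Mtx1 and -0.21 ± 0.13 for Mtx3.

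Among the small TIM chaperones and the TIM22 complex, 1 of 8 genes was called, and the median was -0.01. Timm22, the channel-forming subunit of the complex that inserts carriers such as the ADP/ATP exchanger, was at 20.1, 15.5, 20 and 19.8 CPM in controls. In tumor libraries it was at 14, 12.7, 11.3 and 13.5 CPM, all under the lowest control, which was replicate 2. Timm22 was 1.47-fold lower (log2 fold change -0.55 ± 0.13, adjusted p = 0.0177, edgeR). The call was lost without control replicate 1 (adjusted p = 0.0651) and without tumor replicate 3 (0.0632).

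Its partners in carrier insertion did not pass. Timm29 had a log2 fold change of -0.32 ± 0.13, which passed under upper-quartile scaling (-0.40, adjusted p = 0.0491, edgeR), and Timm10b one of 0.29 ± 0.12. The chaperones of the intermembrane space had 0.19 ± 0.13 for Timm9, 0.06 ± 0.20 for Timm10, -0.08 ± 0.13 for Timm13 and 0.06 ± 0.12 for Timm8b. Timm8a1 had the lowest value, -0.62 ± 0.34, but ran from 3.84 to 8.08 CPM in controls and from 2.14 to 5 CPM in tumor libraries. Its ratio to its relative Timm8b differed by -0.69 on the log2 scale (exact permutation p = 0.257, 4 against 4), so the member with the lowest value in this role is also the least certain.

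In the TIM23 complex and its motor, 1 of 10 genes was called and the median was -0.13. Timm50, the receptor that meets presequences as they leave TOM, was at 32.4, 24.6, 23.6 and 26.4 CPM in controls and at 21.4, 18.1, 17.4 and 21.4 CPM in tumor libraries. The groups did not overlap, and Timm50 was 1.37-fold lower (log2 fold change -0.45 ± 0.14, adjusted p = 0.0443, edgeR). This was the weakest of the 7 calls, with an adjusted p of 0.133 without control replicate 1 and 0.129 without tumor replicate 3. It was lost also with no count filter (0.0697) and without control replicate 4 and tumor replicate 2 together (0.0954).

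No gene of the channel itself passed, and log2 fold changes were 0.07 ± 0.14 for Timm23, -0.04 ± 0.15 for Timm17a and -0.22 ± 0.15 for Timm17b. The ratio of Timm17a to Timm17b, alternative subunits of the channel, differed by 0.18 on the log2 scale (exact permutation p = 0.229, 4 against 4). Timm21, which links TOM and TIM23, had -0.37 ± 0.18, and Timm44, which tethers the motor, had -0.33 ± 0.13 and passed under upper-quartile scaling (-0.41, adjusted p = 0.0481, edgeR). For the motor, values were 0.03 ± 0.26 for the Hsp70 chaperone Hspa9, 0.28 ± 0.13 for its exchange factor Grpel1, 0.05 ± 0.15 for Pam16 and -0.22 ± 0.13 for the J protein Dnajc19. Hspa9 was at 705 CPM in control replicate 4 and at 354 to 406 CPM in the other controls, and the tumor libraries ran from 338 to 602 CPM. Grpel1 passed as higher in 1 alternative, with the Myh4 ratio as a covariate (0.37, adjusted p = 0.0344, edgeR).

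The role with the most calls was that of MICOS and the cristae, where 4 of 6 genes fell (66.7%) and the median was -0.54. Over all genes, 8.73% were called lower. The grouping by role was made with earlier results of these data known, so the share of the role is a description. The count was 1 of 6 without control replicate 1, 1 without tumor replicate 3, 2 without control replicate 2 and 2 without control replicate 4. Genes called lower over the whole table fell in these fits too, from 1229 to 480, 482, 613 and 979 in the same order. Chchd10 and its close relative Chchd2 are small proteins of the intermembrane space with twin cysteine motifs, and mutations in either are linked to human disease of neurons or muscle. Per kilobase of exon, Chchd10 had the highest level of all 50 genes in controls, 335 CPM, ahead of Timm23 at 120 CPM, and Chchd2 came to 94.5 CPM.

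The 250 bases before the start of Chchd10 are shown because it fell most among the cristae genes and was the only one of the 43 genes with a promoter in the RefSeq table that held TGATGNAA, a core of ATF4 and CHOP sites. They lie at chr10:75932880-75933129 on the plus strand of GRCm38.p6, and capitals mark 2 copies of that core, at -85 and -72, and 1 TGCGCA, a core of NRF1 sites, at -63, counted from the first transcribed base at 0.
Chchd10: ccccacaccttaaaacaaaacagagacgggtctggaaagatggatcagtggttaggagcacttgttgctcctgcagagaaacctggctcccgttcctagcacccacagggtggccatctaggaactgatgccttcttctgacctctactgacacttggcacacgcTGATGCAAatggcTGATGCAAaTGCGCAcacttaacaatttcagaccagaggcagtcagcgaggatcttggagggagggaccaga

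Chchd10 was at 519, 480, 501 and 614 CPM in controls and at 310, 324, 226 and 203 CPM in tumor libraries. The lowest control lay well above the highest tumor library. Chchd10 was 1.99-fold lower (log2 fold change -0.99 ± 0.18, adjusted p = 0.00762, edgeR). Chchd2 was at 227, 205, 213 and 214 CPM in controls, which lay close together, and at 163, 151, 125 and 119 CPM in tumor libraries. It was 1.54-fold lower (log2 fold change -0.62 ± 0.13, adjusted p = 0.0125, edgeR), and it just missed without control replicate 1 (adjusted p = 0.0504) and without tumor replicate 3 (0.0519).

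In both genes, replicates 3 and 4 were the lowest tumor libraries. The log2 ratio of Chchd10 to Chchd2 was 1.19, 1.23, 1.24 and 1.52 in controls and 0.93, 1.10, 0.85 and 0.77 in tumor libraries. The groups did not overlap, and the ratio was 1.3-fold lower in tumor, with an exact permutation p of 0.0286 (4 against 4) and 0.0667 adjusted over 7 pairs. Control replicate 4 stood above the other controls in this ratio. Counts of Chchd2 were not whole numbers in all 8 libraries, so the ratio is less certain than one of 2 genes with whole counts.

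Of the 4 subunits of MICOS proper that the choice by symbol took in, 2 fell. Chchd3 (Mic19), a peripheral subunit, was at 246, 231, 217 and 290 CPM in controls and at 190, 191, 161 and 132 CPM in tumor libraries. The groups did not overlap, and it was 1.46-fold lower (log2 fold change -0.55 ± 0.16, adjusted p = 0.0372, edgeR). Apool (Mic27), a subunit that belongs to the apolipoprotein O family, was at 19.2, 19.4, 16.8 and 21.3 CPM in controls and at 13.8, 13.8, 10.7 and 14.6 CPM in tumor libraries. It was 1.45-fold lower, again with no overlap (log2 fold change -0.53 ± 0.13, adjusted p = 0.0235, edgeR). Without any 1 of control replicates 1, 2 and 4 or tumor replicate 3, the call of Apool was lost, with an adjusted p of up to 0.0703. The call of Chchd3 held only without tumor replicate 1 or 2, and its adjusted p was up to 0.108 in the other 6 fits.

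Immt (Mic60), the large core subunit, had -0.12 ± 0.18 and ran from 221 to 324 CPM in controls and from 186 to 278 CPM in tumor libraries. Chchd6 (Mic25), a relative of Chchd3, had the highest value of all 50 genes, 0.34 ± 0.25, and was not called. Chchd6 was also the lowest of the 50 per kilobase of exon in controls, at 1.20 CPM against 84.7 CPM for Chchd3. Their log2 ratio differed by 0.88 between groups (exact permutation p = 0.114, 4 against 4), with control replicate 4 far below the other controls.

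**Figure D2:**
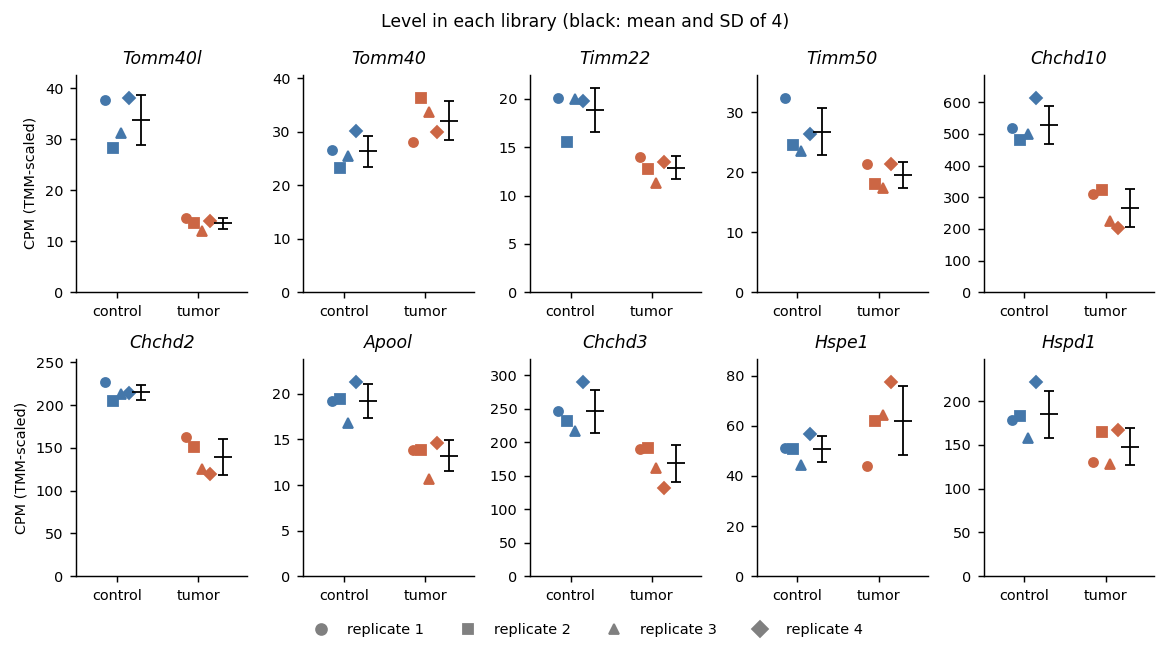
TMM-scaled CPM in each library for the 7 genes that fell and for Tomm40, Hspe1 and Hspd1, with a linear axis from 0 in every panel. Symbols stand for replicates and the black bar for the mean and SD of 4 libraries. In the 7 panels of genes that fell, every tumor library lies below every control, while Tomm40, Hspe1 and Hspd1 overlap.

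The other CHCHD genes gave 0 calls of 4 and a median of -0.10. Chchd1, a protein of the small mitochondrial ribosomal subunit, was at 64.5, 63.5, 65.4 and 56.6 CPM in controls and at 47.7, 44.7, 53.2 and 67.1 CPM in tumor libraries. All tumor libraries except replicate 4 were below the controls. Chchd4 (Mia40), the oxidase that folds cysteine-rich proteins such as the small TIMs and CHCHD proteins on entry, was at 13.5, 12.6, 15 and 17.8 CPM in controls and at 11.6, 10.3, 11.4 and 17.3 CPM in tumor libraries. Here too replicate 4 was the tumor library within the controls' range. Log2 fold changes were -0.23 ± 0.14 for Chchd1, -0.22 ± 0.18 for Chchd4, 0.02 ± 0.18 for Chchd5 and 0.02 ± 0.14 for Chchd7.

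Neither chaperonin gene was called, but their values lay on opposite sides of 0. Hspd1 (Hsp60), the barrel, was at 178, 183, 158 and 222 CPM in controls and at 131, 165, 128 and 167 CPM in tumor libraries, which gave -0.33 ± 0.15 on the log2 scale and an adjusted p of 0.152 in edgeR. Hspe1 (Hsp10), its lid, was at 51.1, 50.6, 44.4 and 56.9 CPM in controls and at 44.1, 61.9, 64.3 and 77.5 CPM in tumor libraries, which gave 0.29 ± 0.17 and an adjusted p of 0.254 in the same test. Both genes overlapped between groups, yet their ratio did not.

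The log2 ratio of Hspe1 to Hspd1 was -1.80, -1.86, -1.83 and -1.97 in controls and -1.57, -1.41, -0.99 and -1.10 in tumor libraries. Every tumor library lay above every control, and the ratio was 1.51-fold higher (exact permutation p = 0.0286, 4 against 4, and 0.0667 adjusted over 7 pairs). Counts of both genes were not whole numbers in all 8 libraries, as happens where reads are shared with other loci, so this ratio is less certain than those of uniquely counted genes.

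The 2 chaperonin genes lie head to head, and the window of Hspe1 is shown because it overlaps the promoter window of a second Hspd1 start, on the other strand. The 250 bases before the Hspe1 start lie at chr1:55087898-55088147 on the plus strand of GRCm38.p6, with capitals on GAACCTTC, a match to the heat shock element core GAANNTTC, at -84 and on AAGGTCA, an extended half-site of nuclear receptors such as the ERR family, at -48.
Hspe1: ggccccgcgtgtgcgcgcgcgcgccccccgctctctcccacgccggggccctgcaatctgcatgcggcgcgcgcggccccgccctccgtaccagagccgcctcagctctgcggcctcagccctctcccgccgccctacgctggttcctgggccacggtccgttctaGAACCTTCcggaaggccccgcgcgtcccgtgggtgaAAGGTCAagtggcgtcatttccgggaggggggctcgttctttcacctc

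Of 43 members with a promoter in the table, 11 (25.6%) held TGCGCA in the first listed window from 250 bases before to 50 after the start, on either strand, against 8.06% of all 27025 genes. AAGGTCA was in 5 (11.6%, against 4.66%), GAANNTTC in 2 (4.65%, against 7.95%) and TGATGNAA in 1 (2.33%, against 4.06%). The motifs did not overlap each other in the 2 windows printed. Of the genes that fell, Timm22, Timm50, Apool and Chchd3 held none of these 4 sets of letters in their windows. Chchd2, Tomm7, Timm21, Tomm40l, Afg3l2, Chchd7 and Hspa9 had no entry. A match is a description of the letters and not of binding.

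**Figure D3:**
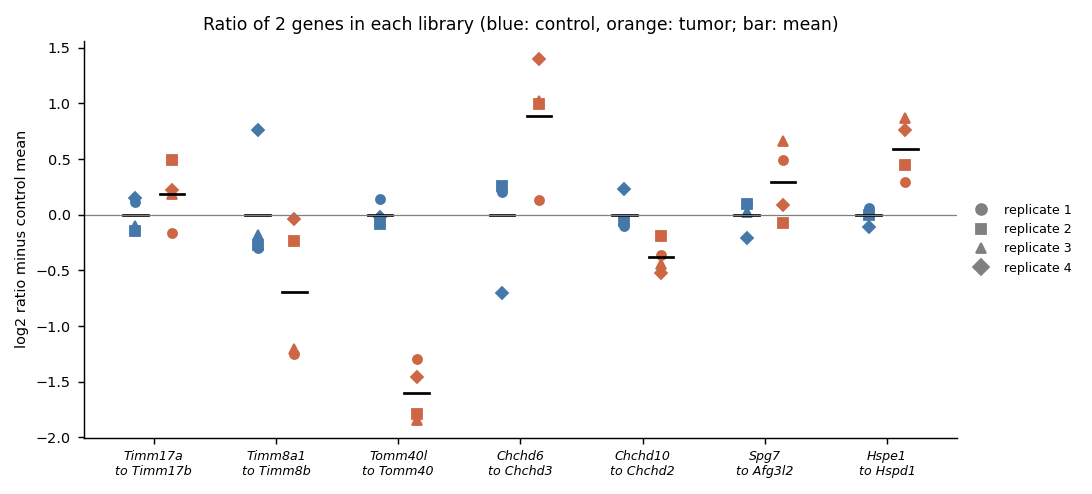
Log2 ratio of 2 related genes in each library, minus the mean ratio of the controls, for the 7 pairs. Symbols stand for replicates and black bars for group means. The groups separate for Tomm40l to Tomm40 and Chchd10 to Chchd2, with tumor lower, and for Hspe1 to Hspd1, with tumor higher, and overlap for the other 4 pairs.

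The proteases of the matrix and inner membrane gave 0 calls of 7, with a median of 0.12, the highest of the 8 roles. Lonp1, the main soluble protease of the matrix, was at 102, 104, 95.4 and 139 CPM in controls and at 92.2, 124, 88 and 88.6 CPM in tumor libraries, a log2 fold change of -0.16 ± 0.16. Spg7 (paraplegin), a subunit of the m-AAA protease, was at 84.7, 74.7, 80.1 and 102 CPM in controls and at 91.1, 94.1, 107 and 79.6 CPM in tumor libraries, a log2 fold change of 0.12 ± 0.14. Both genes overlapped between groups.

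For the partners of Spg7 in the m-AAA protease, log2 fold changes were -0.17 ± 0.19 for Afg3l2 and -0.19 ± 0.09 for Afg3l1. Afg3l1 had the smallest error of the 50 and ran from 49.5 to 51.3 CPM in controls and from 42.5 to 46.7 CPM in tumor libraries, without overlap, but its adjusted p was 0.176 (edgeR). The ratio of Spg7 to Afg3l2 differed by 0.29 on the log2 scale (exact permutation p = 0.257, 4 against 4). Clpp and Clpx, the chamber and the unfoldase of the ClpXP protease, had 0.28 ± 0.17 and 0.19 ± 0.18, and Yme1l1, the protease that faces the intermembrane space, had 0.13 ± 0.11.

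**Figure D4:**
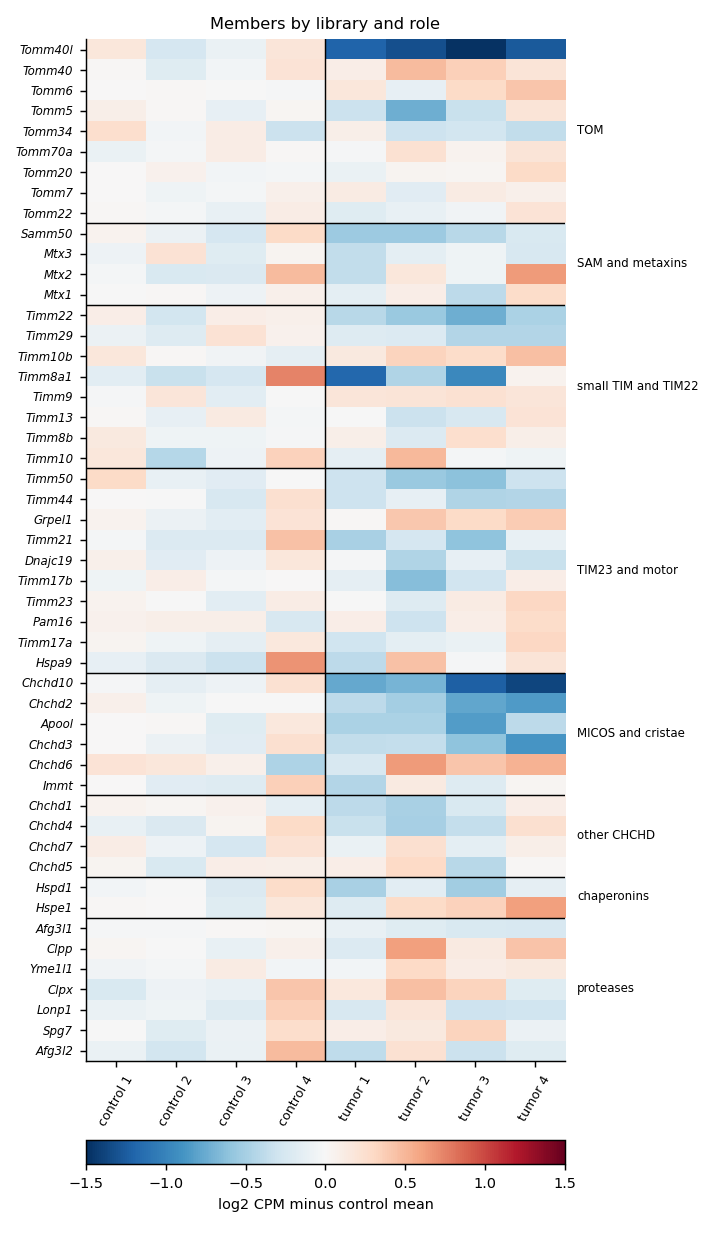
Log2 CPM minus the control mean for the 50 genes (rows, grouped by role) in the 8 libraries (columns), with blue below and red above the control mean on a scale from -1.5 to 1.5. Tomm40l and Chchd10 are the darkest rows in the tumor libraries, and control replicate 4 holds the highest control value in 30 of 50 rows.

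Within each group, the library with the highest or lowest value was counted over the members. The same count was not made over all genes. Control replicate 4 was the highest control for 30 of the 50 genes, and tumor replicate 4 the highest tumor library for 21 and replicate 2 for 17. Tumor replicate 1 was the lowest tumor library for 20. Tumor replicate 4 had a Myh4 share of 95.2% and a TMM factor of 1.22, against 0.90 to 1.02 in all other libraries. Its muscle markers summed to 77402 CPM, against 124806 to 161131 CPM in the other tumor libraries. Control replicate 4 and tumor replicate 2 were the libraries of each group with the lowest share of Myh4, at 64.6% and 80.3%. Without both libraries, 6 of the 50 genes were called lower and 0 higher. With the Myh4 ratio as a covariate, 5 were called lower, and the calls of Chchd3 (adjusted p = 0.059, edgeR) and Timm50 (0.0703) were lost. Their log2 fold changes were -0.48 and -0.43 with the covariate, and -0.55 and -0.45 without it.

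Other genes of import and quality control, taken from a list of 37 that the rule did not cover, gave 7 lower and 1 higher (21.6% called, against 19.8% of all genes) and a median of -0.20. Micos10, the core MICOS subunit that bends the membrane, was at 58.7, 56.5, 52.4 and 63.6 CPM in controls and at 35.9, 34.2, 33.5 and 34.3 CPM in tumor libraries. It was 1.68-fold lower with tight groups (log2 fold change -0.74 ± 0.10, adjusted p = 0.00355, edgeR). Dnajc11, which associates with MICOS and SAM, was 1.53-fold lower (adjusted p = 0.0188), and the prohibitin Phb, part of the inner membrane scaffold around the m-AAA protease, 1.61-fold lower (adjusted p = 0.00528). Bcs1l, which inserts the Rieske protein into complex III, was 1.88-fold lower (adjusted p = 0.00641), and Dnajc15, a relative of Dnajc19, 1.52-fold lower (adjusted p = 0.0148), all in edgeR. Partners of these genes, named here after their values were seen, did not pass: the second prohibitin Phb2 stood at 0.36 ± 0.17 on the log2 scale (adjusted p = 0.149) and Stoml2, which binds prohibitins, 0.47 ± 0.16 (0.0662), both opposite in sign to Phb. The MICOS subunits Micos13 and Apoo had -0.16 ± 0.12 and -0.22 ± 0.14. The count of 7 was 3 without control replicate 1, control replicate 2 or tumor replicate 3, and each of these omissions ended the calls of Dnajc15 and Dnajc11, whose adjusted p reached 0.0563 and 0.067. Each omission also lowered the number of calls over all genes.

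The single gene that rose was Gfer, the sulfhydryl oxidase that recharges Chchd4, which is named here after its value was seen. Gfer was at 25.7, 28.2, 34.8 and 22.9 CPM in controls and at 40.3, 36.6, 51.1 and 61.4 CPM in tumor libraries. It was 1.70-fold higher without overlap (log2 fold change 0.76 ± 0.19, adjusted p = 0.0234, edgeR), while its partner Chchd4 had -0.22 ± 0.18. The call of Gfer was lost without control replicate 1 (adjusted p = 0.077), control replicate 2 (0.062), control replicate 4 (0.051) or tumor replicate 3 (0.0713).

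Regulators of the mitochondrial stress response were read beside the chaperones and proteases. Eif2ak1 (HRI), the kinase that relays mitochondrial stress to translation, was 1.24-fold higher at the edge of the threshold (adjusted p = 0.0491, edgeR), and it was called in 0 of 8 fits that each left out 1 library (adjusted p up to 0.139). Log2 fold changes were 0.32 ± 0.21 for Atf4, -0.07 ± 0.29 for Atf5, -0.83 ± 0.28 for Ddit3 (CHOP), 0.08 ± 0.19 for Dele1 and -0.32 ± 0.13 for Oma1, and none of these 5 passed.

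Set beside the complexes they serve, the 50 genes differed in their share of calls. Of 83 respiratory chain subunits, 58 fell (69.9%) and none rose, with a median of -0.77, and of 78 mitochondrial ribosomal protein genes 16 fell and 3 rose, with a median of -0.16. Among the roles, the median of the MICOS and cristae genes lay closest to that of the respiratory chain and the medians of TOM and the proteases farthest from it. Without control replicate 1 or tumor replicate 3, 37 or 32 of the chain's subunits fell, and 10 or 9 of the ribosomal protein genes, which were 10 also without control replicate 2. In the same fits, calls over all genes were fewer as well. The 3 ribosomal protein genes that rose came to 0 without control replicate 2 or tumor replicate 3 and to 1 without control replicate 1 or 3. The differences between these lists were not tested.

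**Figure D5:**
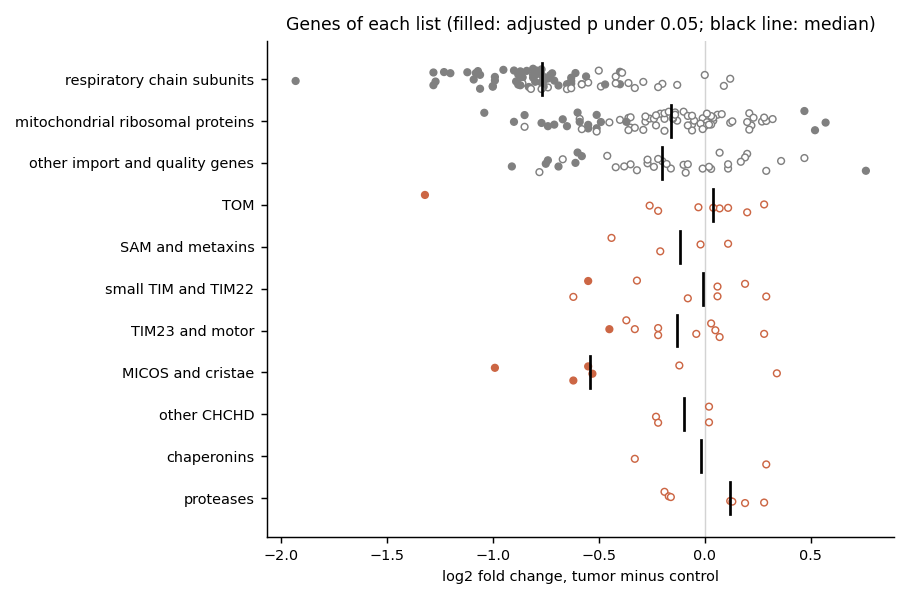
Log2 fold change (tumor minus control) of each gene in the respiratory chain, the mitochondrial ribosome, the 37 other import and quality genes and the 8 roles, with 1 point per gene, filled where the adjusted p was under 0.05, and a black line at each median. The respiratory chain centres on -0.77 and the MICOS and cristae genes on -0.54, while the other 7 roles centre between -0.13 and 0.12.

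To read each member against the respiratory chain, libraries were also scaled by the geometric mean count of the 83 subunits in place of TMM, a comparison chosen after seeing the data. On this scale 32 of the 50 genes were higher in tumor and 1 was lower, while 49.8% of all genes were higher and 1.38% lower. The median of the 50 was 0.70 against 0.74 over all genes, so as a set the 50 stood to the respiratory chain much as the median gene did. Since the median of all genes moved from 0.00 to 0.74, a gene with little change under TMM comes out higher here. All 7 proteases were higher relative to the chain, from 0.55 for Afg3l1 to 1.02 for Clpp on the log2 scale. Under TMM these 2 genes were at -0.19 and 0.28, so the protease values largely follow from the scale. Without control replicate 1, 4 of 7 proteases were higher, and 37.6% of all genes.

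Of the 7 genes that fell, 6 were not called against the chain. Relative log2 differences were -0.27 ± 0.18 for Chchd10, 0.10 ± 0.18 for Chchd2 and 0.22 ± 0.18 for Apool. They were 0.19 ± 0.17 for Chchd3, 0.19 ± 0.19 for Timm22 and 0.31 ± 0.20 for Timm50. A missing call does not show that a gene moved with the chain. The 83 subunits themselves ran from -1.25 to 0.87 on this scale, with 6 called higher and 3 lower. Tomm40l was lower than the chain, with a relative log2 difference of -0.56 ± 0.18 and an adjusted p of 0.0193 in edgeR. That call was lost without control replicate 1 (adjusted p = 0.0653) and without tumor replicate 3 (0.0519).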

How the data were processed

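Bulk RNA of 8 quadriceps was measured, 1 library per mouse, made with a poly(A)-selecting mRNA kit per the labels' protocols. The deposited values are estimated counts of 53819 symbols in 1 table, and 9% of the values are not whole. The submitters' processing notes name Salmon 1.10.1, STAR 2.7.9a, R 4.2.2, Trim Galore 0.6.7, cutadapt 3.4 and build GRCm39. The sources used here give no strand setting, batch or annotation. Estimated counts share reads among similar sequences: of the 50 members, 14 had counts that were not whole (tolerance 0.01), among them Tomm6, Tomm20, Timm10b, Timm8a1, Timm23, Pam16, Chchd2, Hspd1 and Hspe1 in 7 or 8 libraries, and these are less certain. Tomm6 also lies opposite Tomm6os. Timm22, which was called, had counts that were not whole in 5 libraries.

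Counts were rounded, filtered with filterByExpr (minimum count 10; 14070 genes kept) and tested by quasi-likelihood in edgeR 4.0.16 (R 4.3.3), with TMM scaling, group as the only term, two-sided, with Benjamini-Hochberg adjustment over all 14070 genes and a threshold of 0.05. A standard error is the size of the log2 fold change over the root of its F value. CPM are per 1000000, scaled by TMM. P-values measure the spread between these 8 libraries, all of which differed by more than sampling noise. Ratios of gene pairs used log2 of counts plus 0.5 and an exact two-sided permutation test over 70 splits. Steps were tested on simulated counts. Levels per length used exon unions of GENCODE M21 (GRCm38) by symbol, for all 50 members. An exon union can be longer than the transcripts expressed, so rankings per length are approximate. Promoters are from RefSeq on GRCm38.p6, so no coordinates on the build of the counts are given, and 43 of 50 members matched. Protein sequences were not used here.

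The members, roles and lists were chosen with earlier results of these data known. Every member is given with its log2 fold change. Values in every library are given for up to 3 called genes with the smallest p in a role, for up to 2 with the highest level where a role had no call, and for both genes of the pairs with the smallest p, and of the other import genes the 5 called with the smallest p are named. Outside this rule, values in every library are given also for Chchd3, Micos10, Gfer and Myh7. Alternatives were DESeq2 1.42.0 (as a test, and its size factors in edgeR), limma-voom 3.58.1, upper-quartile scaling, no count filter, a strict one (a mean count of 50 and at least 1 CPM in all libraries of a group), a pseudocount of 2 for ratios, each library left out, a replicate block, and the Myh4 ratio as a covariate.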

Additional observations from a re-analysis of the deposited data

Results flagged for a closer look

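In 114 groups of 4 libraries (the 2 groups for each of the 50 genes and the 7 ratios), 10 had 1 library whose gap to the nearest other, divided by the range, was over the 95% critical value of Dixon's test. Chance alone marks about 1 group in 20. Control replicate 4 accounted for 6 of the 10. It was high for Hspa9 (705 CPM, others 354 to 406) and Timm8a1 (8.08 CPM, others 3.84 to 4.32) and low for Pam16 (14.3 CPM, others 17.7 to 18). It stood apart also in the log2 ratios of Timm8a1 to Timm8b (-2.03, others -3.09 to -2.97), Chchd6 to Chchd3 (-7.05, others -6.15 to -6.09) and Chchd10 to Chchd2 (1.52, others 1.19 to 1.24). Tumor replicate 2 was high for Timm10 (16.1 CPM, others 10.5 to 11.3) and Lonp1 (124 CPM, others 88 to 92.2). Control replicate 2 was low for Timm22 (15.5 CPM, others 19.8 to 20.1), and control replicate 3 high for Yme1l1 (55.9 CPM, others 49.3 to 50.2). Of the genes marked by their own level, Timm22 was called between groups, and of those in the marked ratios, Chchd3, Chchd10 and Chchd2 were.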

How the results depend on the processing

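With each library left out in turn, 2 to 8 members were called lower and 0 to 0 higher, 3 to 9 of the other import and quality genes lower and 0 to 2 higher, and, relative to the respiratory chain, 24 to 38 members higher and 0 to 1 lower. Over all genes, 480 to 1450 were called lower and 630 to 1551 higher with TMM scaling. Relative to the chain, 37.6% to 55.8% of all genes were higher. Of the other import and quality genes, 11 were lower with DESeq2, 11 with the strict filter and 11 with upper-quartile scaling, and 2 were higher with DESeq2 and 3 without control 4 and tumor 2 together. With the Myh4 ratio as a covariate 1 member was higher. Upper-quartile scaling moved the median of all genes by -0.08 and called 10 members lower and, over all genes, 1169 higher and 1547 lower, against 1552 and 1229. With a replicate block, 6 members were lower, since Chchd3 was lost (adjusted p = 0.0866), and 0 were higher, and 1 of the ribosomal protein genes was higher in place of 3. Replicates that share a number correlated by 0.028, 0.131, 0.197 and 0.016 in their deviations from the group means. Control and tumor libraries with unlike numbers ran from -0.311 to 0.148. Whether libraries with the same number share more than the number was not tested.

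Signs turned for genes near 0, none of them called, and the cause was not tested. With upper-quartile scaling Tomm20 was at -0.01, Tomm7 -0.03, Timm8b -0.01, Timm10 -0.02, Timm23 -0.01, Pam16 -0.03, Hspa9 -0.05, Chchd7 -0.06 and Chchd5 -0.06. With the covariate, Tomm22 was at 0.01, Mtx1 0.05, Pam16 -0.05, Timm17a 0.02, Immt 0.04, Afg3l2 0.00 and Atf5 0.27. Chchd5 was at -0.00 in limma-voom, with Chchd7 at -0.01 and Chchd5 at -0.01 under the strict filter. Without control 4 and tumor 2 together, Tomm22 was at 0.03, Timm17a at 0.04, Chchd5 at -0.07 and Atf5 at 0.18. With single libraries left out, Tomm20 ran from -0.02 to 0.12, Tomm22 from -0.13 to 0.02, Mtx2 from -0.10 to 0.30, Mtx1 from -0.14 to 0.09, Timm8b from -0.00 to 0.12, Timm10 from -0.13 to 0.18, Timm23 from -0.03 to 0.11, Pam16 from -0.04 to 0.12, Timm17a from -0.19 to 0.04, Hspa9 from -0.14 to 0.31, Immt from -0.24 to 0.01, Chchd7 from -0.09 to 0.09, Chchd5 from -0.12 to 0.14, Afg3l2 from -0.35 to 0.02, Atf5 from -0.21 to 0.30 and Dele1 from -0.09 to 0.21.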
